A study of Mus musculus with 30 samples.

Results

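This section concerns how genes varied together within 1 group of livers, the MCD IgG group, which made up 10 of the 30 livers sequenced by bulk RNAseq. The 10 livers were taken by their label alone, with no measured value used. They came from male C57BL/6 mice, 8 weeks old when the diet began, that were fed a diet lacking methionine and choline (MCD) for 6 weeks. From week 4 to week 6 they received a mouse IgG2a isotype antibody, the control for an antibody against DBI, 2 times per week. The other groups of the study (MCD with anti-DBI, and regular chow with either antibody) were not used here, and no value below is a comparison between groups. The labels list the libraries as separate liver samples without naming the animals, so p values measure the spread between these samples, which includes sampling and library preparation.

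Without methionine and choline, hepatocytes cannot export enough lipid, and the liver becomes fatty and inflamed and can scar. Hepatic stellate cells then turn into myofibroblasts that deposit fibrillar collagen, and monocytes enter from the blood and become lipid-laden macrophages beside the resident Kupffer cells. Hepatocytes and other cells can also re-enter the cell cycle, while the hepatocyte's own tasks (plasma proteins, bile acids, urea, drug metabolism) depend on a separate set of genes. Fibrosis, macrophages, cell division and hepatocyte function were each followed here with a pair of index genes and with lists of known genes, 458 list genes in 30 lists, of which 416 had a mean of at least 10 counts. For mice after 4 weeks of this diet, the study described mostly steatohepatitis and no fibrosis. Fibrosis is thus the name of a gene theme here, and scarring of these livers was not measured.

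Total counts were between 10283129 and 15847636 per liver, and the share of counts on mitochondrial genes was between 4.01% and 4.73%. Livers 2 to 6 had at most 11703128 counts, and livers 1 and 7 to 10 at least 14163837. With 5 livers on each side of that gap, correlations within a side were not computed. Partial correlations given the library total are printed below for some pairs. Livers 2, 3, 4 and 5, on which many results below depend, all lay on the lower side. A partial correlation given the total cannot show whether a relation held within each side. Of the 45 pairs of libraries, the closest (livers 6 and 7) still had 199 of 9322 well-counted genes that differed over 1.5-fold, so no library was a copy of another. Albumin mRNA, the defining transcript of hepatocytes, was at 65080 CPM or more in all 10 livers. CPM are counts divided by the TMM-scaled library size and set to a common library size, and the spread of a gene is the SD of log2(CPM + 1) over the 10 livers.

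Most genes varied little between these livers. Over the 13632 genes with a mean of at least 10 counts, the median SD was 0.21 on the log2 scale, the 5th percentile 0.10 and the 95th percentile 0.48. An SD of 1 or more was found for 31 genes, or 0.227%. The biological coefficient of variation that edgeR estimated had a median of 0.153. Among genes with a mean of at least 5 CPM, predicted genes aside, the largest spread belonged to Dmbt1, a secreted scavenger receptor of ducts and mucosa, which was listed at 0 CPM in the median liver and at 70.9 CPM in liver 2. Next came Cyp3a41a, a cytochrome P450, which ranged from 0.0929 CPM in liver 2 to 31.0 CPM in liver 7. The acute phase genes Saa1 and Saa2 followed: Saa1 had a lowest level of 12.4, a median of 74.8 and a highest level of 470 CPM, with liver 5 at the bottom and liver 8 at the top. Cyp2c54 (0.643 to 28.2 CPM) and Xlr3a (0.184 to 10.9 CPM) completed the 6 most variable. Saa1 and Saa2, and the Cyp2c and Cyp3a genes, have close copies in the genome, so the split of reads within each family is uncertain.

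The 8 index genes differed in how far they spread. In GRCm38 coordinates they are Col1a1 (chr11:94936224-94953042), Acta2 (chr19:34241090-34255590), Gpnmb (chr6:49036546-49070929), Clec4f (chr6:83644542-83656187), Mki67 (chr7:135689784-135716361), Ccnd1 (chr7:144929931-144939925), Alb (chr5:90460897-90476602) and Cyp7b1 (chr3:18071950-18243338), and Dbi lies at chr1:120113280-120121078. Col1a1, which encodes a chain of type I collagen, had 14.9 CPM in liver 5, a median of 37.8 CPM and 99.3 CPM in liver 10 (SD 0.79). Liver 3, at 98.5 CPM, stood beside liver 10, and liver 1 was next at 62.1 CPM. Acta2, the smooth muscle actin of myofibroblasts and vessel walls, had 2.51 CPM in liver 7, a median of 5.31 CPM and 14.0 CPM in liver 2 (SD 0.58), so that liver 2 alone was well above the rest. Gpnmb, a lysosomal glycoprotein of lipid-laden macrophages, had the widest range of the 8, from 67.4 CPM in liver 5 through a median of 332 CPM to 933 CPM in liver 3 (SD 1.06). Clec4f, a lectin of Kupffer cells, was lowest where Gpnmb was highest, with 28.3 CPM in liver 3, a median of 47.5 CPM and 108 CPM in liver 2 (SD 0.57).

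Mki67, the proliferation antigen of dividing cells, had 2.11 CPM in liver 5, a median of 10.0 CPM and 20.4 CPM in liver 3 (SD 0.79). Ccnd1, cyclin D1, which starts the passage out of quiescence, had 245 CPM in liver 2, a median of 461 CPM and 609 CPM in liver 3 (SD 0.42). Liver 5, lowest for Mki67, was in the middle of the order for Ccnd1 at 438 CPM. Alb varied less, between 65080 CPM in liver 3 and 121000 CPM in liver 2 (SD 0.27). Cyp7b1, an oxysterol hydroxylase of bile acid synthesis, had 15.5 CPM in liver 3, a median of 20.5 CPM and 33.5 CPM in liver 1 (SD 0.36). Dbi, the target of the antibody that these mice did not receive, was among the steadiest genes, at 300 to 368 CPM (SD 0.09, place 13096 of 13632 by spread).

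**Figure D1:**
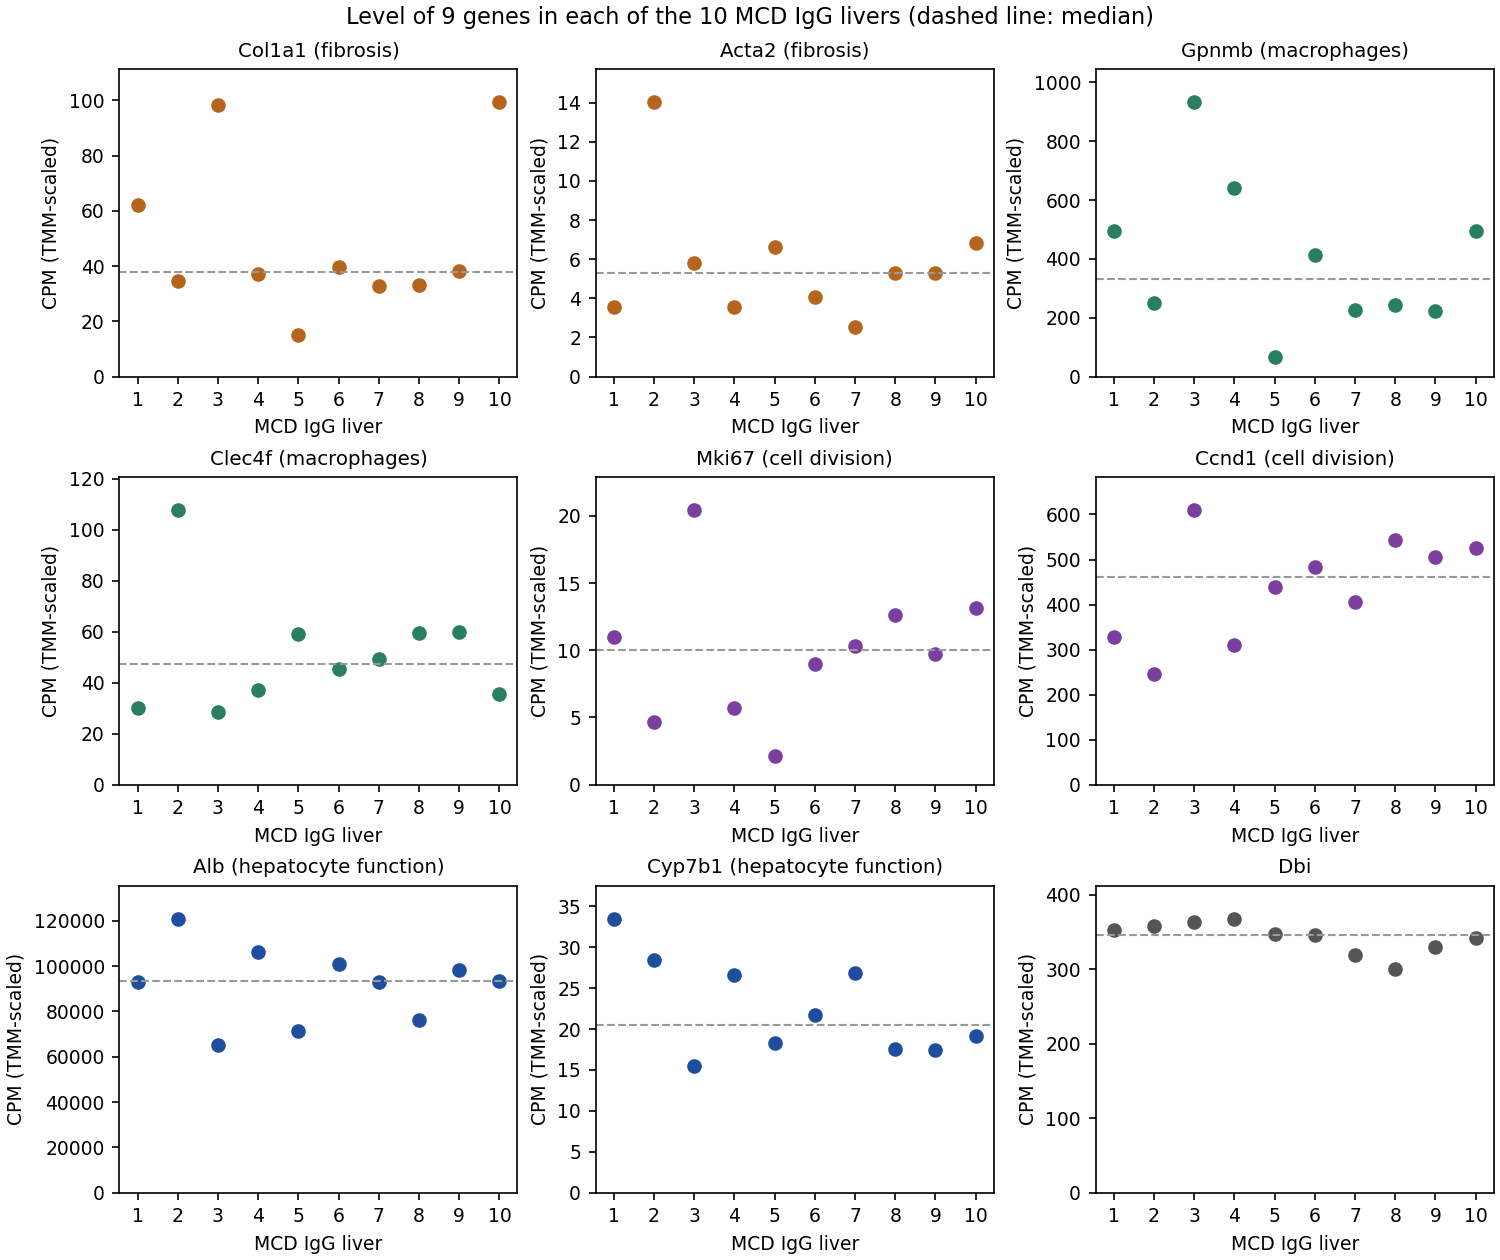
Level in CPM (vertical axes, from 0) of the 8 index genes and Dbi in each of the 10 MCD IgG livers (horizontal axes, liver number); each point is 1 liver and the dashed line is the median. Liver 3 was highest or nearly so for Col1a1, Gpnmb, Mki67 and Ccnd1, liver 5 lowest for Col1a1, Gpnmb and Mki67, and liver 2 stood apart for Acta2 and Clec4f.

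Which genes followed each index gene was tested with edgeR's quasi-likelihood test on the counts of the 10 livers, with the index gene's log2(CPM + 1), in units of its SD, as the covariate. A gene is called when its Benjamini-Hochberg adjusted p over all genes tested is under 0.05. The fitted slope is the log2 change of a gene per SD of the index gene. Pearson correlations (r) and rank correlations (rho) are given on log2(CPM + 1) over the 10 livers with two-sided permutation tests.

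The extracellular matrix genes moved together from liver to liver. With Col1a1, 636 of 13631 genes rose (4.67%) and 95 fell (0.697%). Of the 17 other genes in the list of fibrillar collagens and matrix proteins, 13 rose and none fell, and their median r with Col1a1 was 0.94, against -0.04 over all genes. All 153 pairs of genes within that list had a positive r, with a median of 0.85, while the median over all pairs of genes was -0.0029. Without liver 5 the fit called 60 genes in all and 9 members of the list, and without liver 3 it called 128 genes. With livers 3 and 5 both left out, 2 genes were called, Col3a1 and Col1a2.

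Those 2 genes, which encode the chain of type III collagen and the second chain of type I collagen, tracked Col1a1 most closely. Col3a1 had a lowest level of 34.1 CPM in liver 5, a median of 94.1 CPM and a highest level of 231 CPM in liver 3. Its r with Col1a1 was 0.99 (permutation p = 5e-05; rho = 0.94, permutation p = 0.00019), its slope 0.78 ± 0.04 (SE) and its adjusted p 2.23e-06 by edgeR. Col1a2 ranged from 19.7 CPM in liver 5 to 101 CPM in liver 3, also with r = 0.99 and an edgeR adjusted p of 4.45e-06. Without livers 3 and 5 the r of both genes with Col1a1 was 0.98. The other called members were Col5a1, Col5a2, Col6a1, Col6a2, Col6a3, Col14a1, the small proteoglycans Lum, Dcn and Bgn, the microfibril gene Fbn1 and the collagen-binding Sparc. Dpt, which encodes dermatopontin, stood furthest from the list: it had 2.01 CPM in liver 5, a median of 4.07 CPM and 4.68 CPM in liver 8, with r = 0.34 and an edgeR adjusted p of 0.65.

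Genes that cross-link and turn over the matrix followed in part. In that list 9 of 15 measured members rose with Col1a1 and none fell, and the fewest, 4, were called without liver 5. Adamts2, which trims procollagen, ranged from 5.56 CPM in liver 5 to 18.8 CPM in liver 3 (r = 0.94, edgeR adjusted p = 0.0019). The lysyl oxidases Lox, Loxl1 and Loxl2, which cross-link collagen, were all called, as were the hydroxylase Plod2, the protease inhibitors Timp1 and Timp2 and the proteases Mmp2 and Mmp12. Timp1 ranged from 0.671 CPM in liver 5 to 4.38 CPM in liver 10. Timp3, by contrast, stayed within 37.9 and 57.5 CPM (r = 0.39, edgeR adjusted p = 0.483). Of the 15 TGF-beta and profibrotic ligand genes, 6 rose, among them Tgfb1 itself, the latent TGF-beta binding proteins Ltbp1, Ltbp2 and Ltbp3, and Pdgfb. Without liver 5, 1 gene of this list was called. Inhba, a chain of activin, had the opposite sign, at 33.1 CPM in liver 5 and 7.06 CPM in liver 2 (r = -0.39, edgeR adjusted p = 0.41). In the basement membrane list 1 of 9 genes rose, Col4a1.

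Markers of stellate cells and myofibroblasts did not move as 1 list. Within the list the median r was 0.29, and 84 of 136 pairs were positive. Most members leaned the same way as Col1a1: their median r with it was 0.70, and 12 of 17 had a positive r. With Col1a1, 3 of 17 rose by the test, namely Vim, Cygb and Ngfr, and without liver 3 none of the 17 was called. Cygb, cytoglobin, a stellate cell protein, had 18.3 CPM in liver 5, a median of 31.9 CPM and 46.0 CPM in liver 3 (r = 0.88, edgeR adjusted p = 0.00683). Acta2 and Col1a1 showed no correlation that the test could detect (r = -0.02, permutation p = 0.958; rho = 0.13, permutation p = 0.732), and r was between -0.15 and 0.13 whichever liver was left out, and -0.30 without livers 3 and 10. The contractile genes Myl9 and Tpm2 lay close to Acta2 instead (r = 0.90 and 0.80), but neither was called (edgeR adjusted p = 0.328 and 1). Over the 16 other genes of the list the median r with Acta2 was -0.14, and 7 had a positive r. With Acta2, 1 gene rose (0.00734% of those tested), Dmbt1, and none fell (0%), while 420 genes had an unadjusted p under 0.05. That 1 call rested on liver 2: without it no gene was called and 437 had an unadjusted p under 0.05. In bulk RNA, more cells of a type and more RNA per cell cannot be told apart, here or in any result below.

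Macrophage genes formed the second large group. With Gpnmb, 504 genes rose (3.7%) and 36 fell (0.264%). Of 13 other lipid-associated macrophage genes 10 rose, and of 20 genes of recruited monocytes and macrophages 15 rose, with none falling in either list. The median r with Gpnmb was 0.90 and 0.92 in these lists, against -0.05 over all genes. The total of genes called fell to 134 without liver 5 and to 226 without liver 3, and came to 852 without liver 4. Without liver 5 the fit called 7 recruited macrophage genes, and the fewest lipid-associated genes called with any 1 liver left out was 9.

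Itgax, an integrin of macrophages and dendritic cells, had the largest r with Gpnmb among called genes. It had 9.10 CPM in liver 5, a median of 33.4 CPM and 76.8 CPM in liver 3. Its r was 0.99 (permutation p = 1e-05, the smallest that these permutations can give; rho = 0.99) and its edgeR adjusted p 3.44e-06. Tyrobp, the signalling adaptor of Trem2, ranged from 13.6 to 64.2 CPM with the same livers at the ends (r = 0.99, edgeR adjusted p = 8.79e-06). Trem2, a lipid-sensing receptor, ranged from 7.95 to 47.5 CPM, and Mmp12 (macrophage elastase) and Fabp5 (a fatty acid carrier) each had r = 0.98 with Gpnmb. Without livers 3 and 5, r was still 0.97 for Itgax, 0.96 for Tyrobp, 0.95 for Mmp12 and 0.96 for Fabp5, and 5 lipid-associated and 3 recruited macrophage genes were still called. Myo1f, a myosin of leukocytes, stood beside them (r = 0.99, edgeR adjusted p = 7.27e-06).

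Some members went their own way. Ctsl, cathepsin L, was at 1486 CPM in liver 2, 1623 CPM in the median liver and 2126 CPM in liver 5, and its r with Gpnmb was -0.76 (permutation p = 0.00711) with an edgeR adjusted p of 0.127. The complement gene C1qa, carried by most liver macrophages, had r = 0.68 with Gpnmb and an edgeR adjusted p of 0.138. Ccr2, the receptor that draws monocytes from the blood, ranged from 4.98 CPM in liver 5 to 16.2 CPM in liver 10 (r = 0.69, edgeR adjusted p = 0.0874). Among 15 measured chemokine and cytokine genes 2 rose with Gpnmb, Cx3cl1 (r = 0.92) and Cxcl16 (r = 0.82), and neither was called without livers 3 and 5. Cxcl1, a neutrophil chemokine, had r = 0.04 with Gpnmb: it stood at 86.1 CPM in liver 9 and 71.6 CPM in liver 8, while no other liver was above 28.6 CPM. Ccl12, Il6 and Osm were under the count minimum.

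Kupffer cell genes moved together only in part: the median r between the 11 members was 0.38, and 43 of 55 pairs were positive. With Clec4f, 3 genes rose (0.022%) and none fell (0%): the scavenger receptors Cd163 and Marco, and Dmbt1. An unadjusted p under 0.05 was found for 1246 genes, and without liver 2 the count of calls came to 230, of which 21 rose and 209 fell. By permutation of r, no gene was called. Cd163 had 0.919 CPM in liver 3, a median of 4.10 CPM and 15.1 CPM in liver 2 (r = 0.93, edgeR adjusted p = 0.0213). Marco had 9.47 CPM in liver 3 and 101 CPM in liver 2, and no other liver was above 39.9 CPM (r = 0.92, edgeR adjusted p = 0.00257). Timd4, Folr2 and Vsig4, further Kupffer cell markers, also had their highest level in liver 2 (r = 0.91, 0.89 and 0.85 with Clec4f) and were not called. With Gpnmb the sign was negative: Cd163 fell (r = -0.82, edgeR adjusted p = 0.0331), and Clec4f had r = -0.66 (permutation p = 0.0373; rho = -0.77, permutation p = 0.0122) with an edgeR adjusted p of 0.147, and r = -0.75 without livers 3 and 5. Id3, a transcription regulator that other cells share, had r = 0.55 with Gpnmb and was not called.

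**Figure D2:**
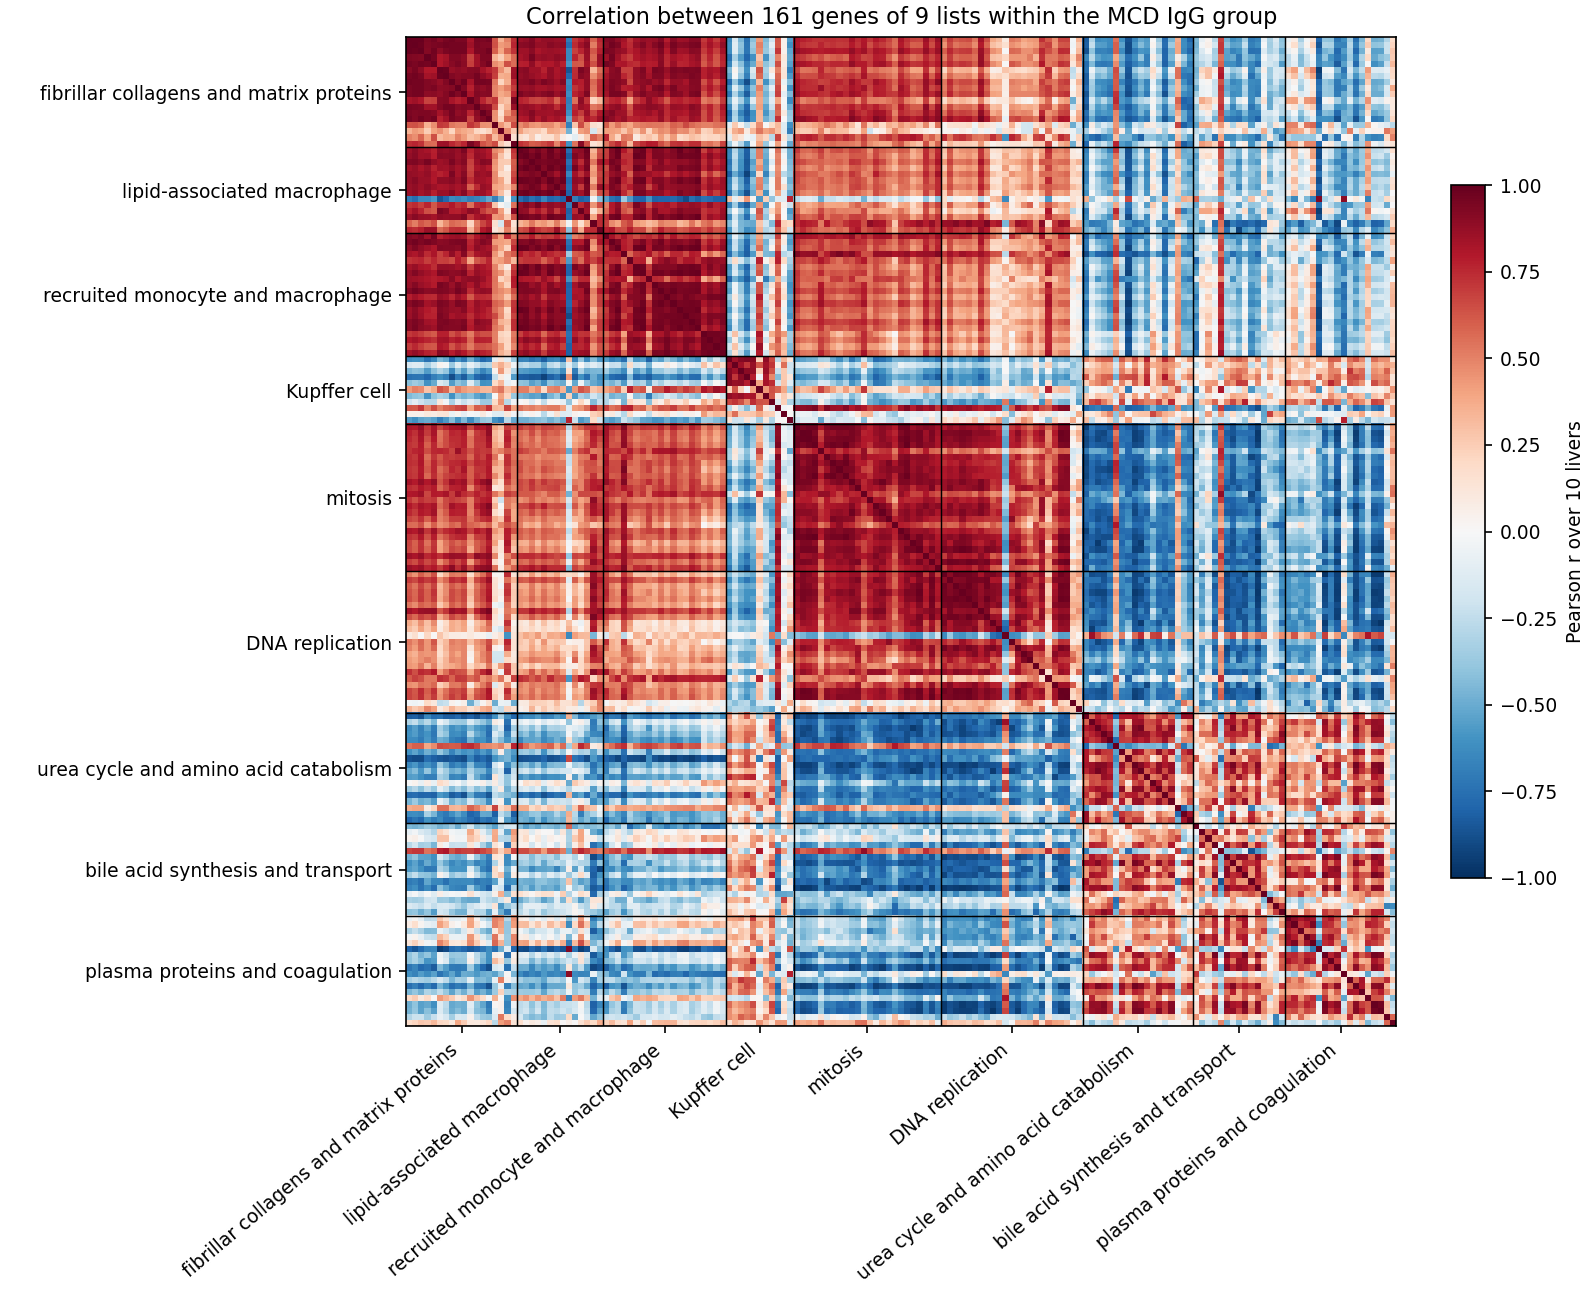
Pearson r over the 10 MCD IgG livers between 161 genes of 9 lists, with genes in list order on both axes, black lines between lists and colour from blue (-1) to red (1). The matrix and macrophage blocks are red within and between themselves, the Kupffer cell block is mixed, and the mitosis and replication blocks are blue against the urea cycle block.

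The genes of mitosis moved as a block. With Mki67, 610 genes rose (4.48%) and 369 fell (2.71%). Of the 23 other mitosis genes measured, 22 rose, and all 23 had a positive r, with a median of 0.91 against 0.01 over all genes. Leaving out liver 3 gave 18 called mitosis genes, the fewest, and leaving out livers 3 and 5 gave 16. Over all genes the count was 226 without liver 3 and 552 without liver 10. Without liver 5 the count of calls was 1463, and the split turned to 649 rising and 814 falling.

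Ccnb1, the cyclin that drives entry into mitosis, had 0.192 CPM in liver 5, a median of 2.64 CPM and 5.24 CPM in liver 3 (r = 0.97, permutation p = 3e-05; edgeR adjusted p = 0.000931). Ccna2, cyclin A, ranged from 0.862 to 7.08 CPM between the same livers (r = 0.97, edgeR adjusted p = 0.000517). Cdc20, the activator of the anaphase-promoting complex, had the widest range of the list, with 0.0958 CPM in liver 5 and 9.74 CPM in liver 3. A level of 0.0958 CPM in liver 5 is that of 1 count, so the ratio between these livers was poorly measured. Cenpe, a kinetochore motor, had the weakest r of the list (0.78, edgeR adjusted p = 0.029), and Kif23 was the member not called (edgeR adjusted p = 0.0596). Bub1 was under the count minimum.

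Genes of DNA replication rose with Mki67 in 14 of 23 cases, and none fell. Without liver 3, 5 of the 23 were called, and without livers 3 and 5 together 13 were. Uhrf1, which keeps up DNA methylation behind the replication fork, had 1.63 CPM in liver 5, a median of 8.29 CPM and 31.9 CPM in liver 3 (SD 1.18; r = 0.92, edgeR adjusted p = 0.000517). E2f1, a transcription factor of S phase entry, ranged from 2.11 to 10.9 CPM (r = 0.93, edgeR adjusted p = 0.00174). The subunits of the replicative helicase, Mcm2 to Mcm7, were all called, with Mcm5 between 3.07 CPM in liver 2 and 40.2 CPM in liver 3. Median r between the replication and mitosis lists was 0.76.

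Promoter sequences are shown for 5 of these genes, and a link between motifs and covariation was not tested. For mitosis, they are the 3 list genes with the largest r with Mki67 among those whose promoter held both motifs searched for that list, and for replication the 2 with the largest r among those with an E2F-type motif. Each runs 5′ to 3′ along its gene from 250 bases before to 50 bases after the start, in RefSeq annotation of GRCm38.p6. Capitals mark TTTGAA (the cell cycle homology region) and CCAAT (the box bound by NF-Y) on either strand, and TTCCCGC or TTGGCGC (E2F-type) on either strand in the replication genes. The reverse of TTGGCGC can abut CCAAT, and CCAAT read on opposite strands can overlap. Aurka lies at chr2:172370521-172370820 on the minus strand, Plk1 at chr7:122159185-122159484 on the plus strand, Cdc20 at chr4:118437294-118437593 on the minus strand, Uhrf1 at chr17:56303087-56303386 on the plus strand and Mcm5 at chr8:75109259-75109558 on the plus strand.
Aurka: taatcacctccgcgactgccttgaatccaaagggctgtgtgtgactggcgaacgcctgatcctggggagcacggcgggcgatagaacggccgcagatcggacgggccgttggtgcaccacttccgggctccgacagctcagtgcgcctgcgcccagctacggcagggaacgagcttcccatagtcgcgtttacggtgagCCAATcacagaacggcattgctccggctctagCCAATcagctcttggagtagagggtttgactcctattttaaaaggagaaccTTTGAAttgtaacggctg
Plk1: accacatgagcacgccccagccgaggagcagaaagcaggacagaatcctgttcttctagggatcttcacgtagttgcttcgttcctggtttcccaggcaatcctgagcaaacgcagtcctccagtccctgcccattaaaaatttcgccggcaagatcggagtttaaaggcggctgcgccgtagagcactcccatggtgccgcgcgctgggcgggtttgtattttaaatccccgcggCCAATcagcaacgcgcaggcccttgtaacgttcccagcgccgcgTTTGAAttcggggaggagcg
Cdc20: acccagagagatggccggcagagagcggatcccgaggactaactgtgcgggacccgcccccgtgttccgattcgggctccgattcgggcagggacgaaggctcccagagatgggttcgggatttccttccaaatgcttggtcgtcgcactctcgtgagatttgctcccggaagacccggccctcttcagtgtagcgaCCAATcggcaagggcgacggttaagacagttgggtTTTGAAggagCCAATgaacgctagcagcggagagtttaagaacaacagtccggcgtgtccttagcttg
Uhrf1: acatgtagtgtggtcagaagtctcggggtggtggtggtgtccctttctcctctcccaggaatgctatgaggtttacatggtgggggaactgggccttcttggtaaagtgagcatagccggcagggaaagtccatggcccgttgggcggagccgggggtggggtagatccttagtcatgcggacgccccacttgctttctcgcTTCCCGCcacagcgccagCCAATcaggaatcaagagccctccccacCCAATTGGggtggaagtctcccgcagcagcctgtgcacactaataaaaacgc
Mcm5: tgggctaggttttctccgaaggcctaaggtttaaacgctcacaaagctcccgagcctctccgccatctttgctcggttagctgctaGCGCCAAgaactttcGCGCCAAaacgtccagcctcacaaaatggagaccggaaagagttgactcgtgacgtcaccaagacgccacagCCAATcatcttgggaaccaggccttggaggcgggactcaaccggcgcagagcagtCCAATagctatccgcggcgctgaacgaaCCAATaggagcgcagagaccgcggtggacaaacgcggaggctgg

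Promoters were found for 20 of the 25 mitosis genes (21 promoters), and 71.4% of these held both TTTGAA and CCAAT, against 6.95% of all 32851 promoters in the table and 4.87% of those of measured genes. TTTGAA alone was in 76.2% and CCAAT in 85.7% of the mitosis promoters, against 17.9% and 37.4% of all promoters and 12.4% and 37.4% of those of measured genes. In the 22 promoters of 19 replication genes, an E2F-type motif was in 54.5%, against 6.81% of all promoters, 11.2% of those of measured genes and 14.3% of the mitosis promoters. TTTGAA was in 13.6% of these replication promoters, and CCAAT in 68.2%, so CCAAT was frequent in both lists. The macrophage promoters (30, from 26 of 34 genes) held GAGGAAG, a PU.1-type motif, in 33.3% and TGANTCA, an AP-1-type motif, in 23.3%, against 13.6% and 7.81% of all promoters and 13.7% and 5.4% of those of measured genes. The 14 matrix promoters held CCAAT in 14.3%, TTTGAA in 28.6% and GAGGAAG in 28.6%. These are counts of letters in 300 bases, and binding was not measured here. The lists hold known genes, and the mitosis and replication motifs are those known for such genes. Their shares therefore do not depend on what these livers showed.

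Ccnd1 was not called with Mki67 (r = 0.55, permutation p = 0.0983; rho = 0.71, permutation p = 0.0271; edgeR adjusted p = 0.195), though r was 0.74 without livers 2 and 5. Without livers 3 and 5 r was 0.82 and Ccnd1 was called with Mki67 (edgeR adjusted p = 0.0164). With Ccnd1, 451 genes rose (3.31%) and 614 fell (4.5%). Replication genes rose in 12 of 23 cases, mitosis genes in 4 of 24. Whether those shares differ was not tested. This set of calls hung on liver 2, the liver with the lowest Ccnd1: 2 genes were called without it, 371 without liver 4, 543 without liver 8 and 631 without liver 10. Without livers 3 and 5 the count was 1728. The partners Ccnd2 (r = 0.90, edgeR adjusted p = 0.0179) and the p53 regulator Mdm2 (r = 0.90, edgeR adjusted p = 0.0207) rose with Ccnd1. Of called genes with a mean of at least 5 CPM, the largest r belonged to Nup107, a nuclear pore gene at 3.81 to 8.73 CPM (r = 0.98), Tuba8 (r = 0.97) and Azin1, an activator of polyamine synthesis (r = 0.97).

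The other genes of the cyclin D and cell cycle inhibitor list did not share a pattern: the median r between its 15 members was -0.06. Cdkn1a, the cyclin-dependent kinase inhibitor that p53 induces, was the 1 member called with Mki67, and it rose with it (7.64 CPM in liver 4, a median of 20.7 CPM and 30.9 CPM in liver 3; r = 0.74, edgeR adjusted p = 0.0337). Gadd45a was highest in liver 5 at 50.6 CPM and Myc highest in liver 7 at 67.4 CPM, and neither was called with Mki67 or Ccnd1. Of called genes with a mean of at least 5 CPM, Slco3a1 (r = 0.97), Csf1, the macrophage growth factor (18.5 to 43.2 CPM, r = 0.97, edgeR adjusted p = 0.00104), and Rhob (r = 0.97) had the largest r with Mki67.

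Genes of the urea cycle and amino acid breakdown fell as Mki67 rose. Of the 18 genes of that list 11 fell with Mki67 and none rose, and the median r was -0.74. Cps1, the entry enzyme of the urea cycle, had 2592 CPM in liver 10, a median of 3009 CPM and 4815 CPM in liver 5 (r = -0.94, edgeR adjusted p = 0.00575). Hal, which degrades histidine, had 206 CPM in liver 3, a median of 320 CPM and 629 CPM in liver 2 (r = -0.90, edgeR adjusted p = 0.00248). Tat, which degrades tyrosine, ranged from 709 CPM in liver 3 to 2899 CPM in liver 5 (r = -0.83, edgeR adjusted p = 0.00945). Otc, Ass1, Asl and Arg1, the other enzymes of the cycle, were all called and negative. Glul and Bhmt had positive r (0.72 and 0.47) and were not called. With any 1 liver left out, 3 to 9 genes of the list fell, the fewest without liver 3, and without livers 3 and 5 10 of 18 did. Pm20d1, Adk and Shmt1 had the most negative r among genes called with Mki67 (-0.97, -0.96 and -0.95), and Pygl and Fbp1, of glycogen breakdown and gluconeogenesis, were also called (r = -0.94 and -0.91).

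With Ccnd1, 5 of 15 bile acid genes, 6 of 20 P450 and conjugation genes, 5 of 18 plasma protein genes and 7 of 18 urea cycle genes fell, and none rose. With Mki67 the counts of the first 3 of these lists were 3, 1 and 3, and the difference between the index genes was not tested. Without liver 2, Cyp27a1 was the only gene of these lists called with Ccnd1. Cyp27a1, a mitochondrial sterol hydroxylase of bile acid synthesis, had 124 CPM in liver 3, a median of 192 CPM and 380 CPM in liver 4 (r = -0.95 with Ccnd1, edgeR adjusted p = 0.00127). Slc27a5, which activates bile acids, ranged from 182 CPM in liver 3 to 627 CPM in liver 2 (r = -0.90, edgeR adjusted p = 0.0031), and Slc10a1, the main uptake carrier of bile salts, from 75.6 CPM in liver 3 to 410 CPM in liver 2 (r = -0.81, edgeR adjusted p = 0.0242). Cyp7b1 had r = -0.86 with Ccnd1 (permutation p = 0.00176; rho = -0.85, permutation p = 0.00293; edgeR adjusted p = 0.0112). In the reverse fit, with Cyp7b1 as the covariate, Ccnd1 was not called (edgeR adjusted p = 0.271). Cyp7a1, the rate-limiting enzyme of the main pathway, showed none of this (120 CPM in liver 2, 246 CPM in liver 9; r = 0.06, edgeR adjusted p = 0.909). Among P450 genes Cyp2d9, Cyp2c37, Cyp2c50, Cyp2e1, Cyp1a2 and the electron donor Por fell, and among plasma proteins Apoh, Apoa1, Proc, Plg and Serpina1c. Dpys and Fahd2a had r = -0.97 with Ccnd1, and Mir5125, whose reads may come from a host transcript, r = -0.98.

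Alb gave few calls of its own: 10 genes rose with it (0.0734%) and 1 fell (0.00734%), with 1884 at an unadjusted p under 0.05. Among the list genes these were Nr1i3, the xenobiotic receptor CAR (273 to 738 CPM, r = 0.90, edgeR adjusted p = 0.0462), and Cyp2c50 (111 to 602 CPM, r = 0.89, edgeR adjusted p = 0.0462). The largest r belonged to Tm7sf2, a sterol reductase (14.5 to 61.0 CPM, r = 0.96), Ces1c (r = 0.94) and Pigr (r = 0.93). The number of calls hung on single livers, from 0 without liver 2 to 464 without liver 5. Ttr, transthyretin, had r = 0.89 with Alb (permutation p = 0.00069) with an edgeR adjusted p of 0.162. With Cyp7b1 no gene was called in either direction (0%), though 1546 had an unadjusted p under 0.05, and DESeq2 called 72.

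**Figure D3:**
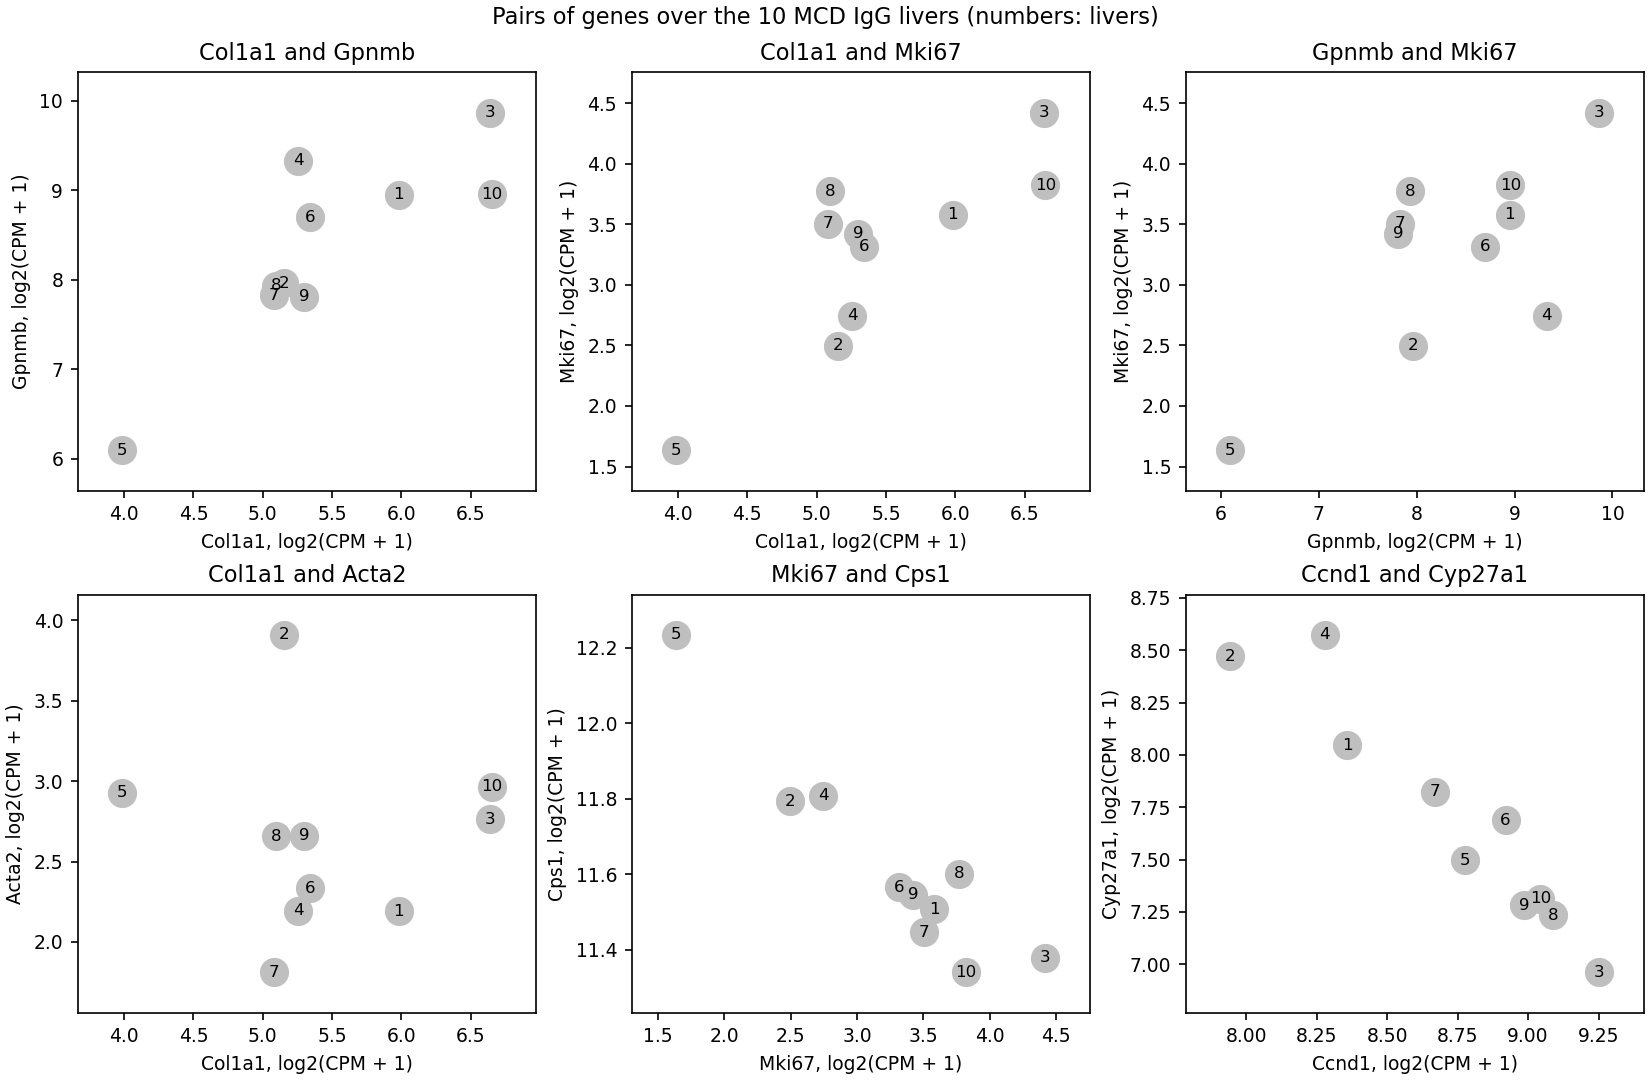
Pairs of genes on log2(CPM + 1) axes over the 10 MCD IgG livers, each number marking 1 liver. Livers 3 and 5 sit at opposite ends for Col1a1, Gpnmb and Mki67, Col1a1 and Acta2 show no trend (r = -0.02), and Cps1 and Cyp27a1 fall along Mki67 (r = -0.94) and Ccnd1 (r = -0.95).

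All 28 pairs of the 8 index genes were examined, and 8 had a permutation p of r under 0.05, 5 a permutation p of rho under 0.05 and 3 a call by edgeR in either direction of the fit. The strongest positive pair was Col1a1 and Gpnmb (r = 0.85, permutation p = 0.0023; rho = 0.75, permutation p = 0.0171; edgeR adjusted p = 0.015). It held at r = 0.86 without livers 3 and 10, the farthest from the median of Col1a1, and came to 0.56 without livers 3 and 5. Col1a1 and Mki67 had r = 0.82 (permutation p = 0.00436; rho = 0.62, permutation p = 0.0609; edgeR adjusted p = 0.0322), with 0.75 without livers 3 and 10 and 0.46 without livers 3 and 5. Gpnmb and Mki67 had r = 0.71 (permutation p = 0.0236; rho = 0.49, permutation p = 0.154; edgeR adjusted p = 0.114), and without livers 3 and 5, which are also the 2 farthest from the median of Gpnmb, r was -0.0649. The relation of Gpnmb to Mki67 therefore rested on those 2 livers. Given the library total, the partial r was 0.87, 0.85 and 0.82 in these 3 pairs.

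The negative pairs were Ccnd1 and Cyp7b1, given above, whose r was -0.92 without livers 2 and 4, and Ccnd1 and Alb (r = -0.71, permutation p = 0.0219; rho = -0.62, permutation p = 0.0597; edgeR adjusted p = 0.125), whose r was -0.42 without those livers. Col1a1 and Clec4f had r = -0.64 (permutation p = 0.0477; rho = -0.67, permutation p = 0.0383; edgeR adjusted p = 0.145), and r = -0.44 without livers 3 and 10. Alb and Cyp7b1 had r = 0.67 (permutation p = 0.037; rho = 0.52, permutation p = 0.133; edgeR adjusted p = 0.26), and r = 0.46 without livers 3 and 5. Mki67 and Alb had r = -0.25 over all 10 livers (permutation p = 0.49) and r = -0.92 without liver 5, in which both genes were low. Over all 10 livers Dbi had an r of at most 0.41 in size with any of the 8 index genes. None of its 8 permutation p values was under 0.05. Leaving out livers 3 and 5 changed this: r was then 0.82 with Alb, -0.69 with Ccnd1, -0.67 with Mki67 and 0.67 with Gpnmb. With Cyp7b1, Col1a1, Acta2 and Clec4f it was then 0.58, 0.25, 0.20 and -0.17. These values over the remaining livers were not tested.

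With Mki67, 12 of 18 collagen and matrix genes and 6 of 20 recruited macrophage genes rose, but without liver 3 these counts were 2 and 0, and without livers 3 and 5 both were 0. With Col1a1, 16 of 20 recruited and 10 of 14 lipid-associated macrophage genes rose, and without liver 5 these counts were 2 and 1. Between lists, the median r was 0.81 between the collagen and the recruited macrophage list, 0.71 between collagens and mitosis, and 0.61 between recruited macrophages and mitosis. Without livers 3 and 5 these became 0.53, 0.35 and -0.0607, while the medians within the collagen, recruited macrophage and mitosis lists stayed at 0.72, 0.66 and 0.79. Within each list the median r thus stayed high over the remaining 8 livers, and between mitosis and recruited macrophages it did not. Mitosis and the urea cycle list had a median r of -0.73. Over all gene pairs the 5th percentile of r was -0.64 and the 95th percentile 0.65.

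**Figure D4:**
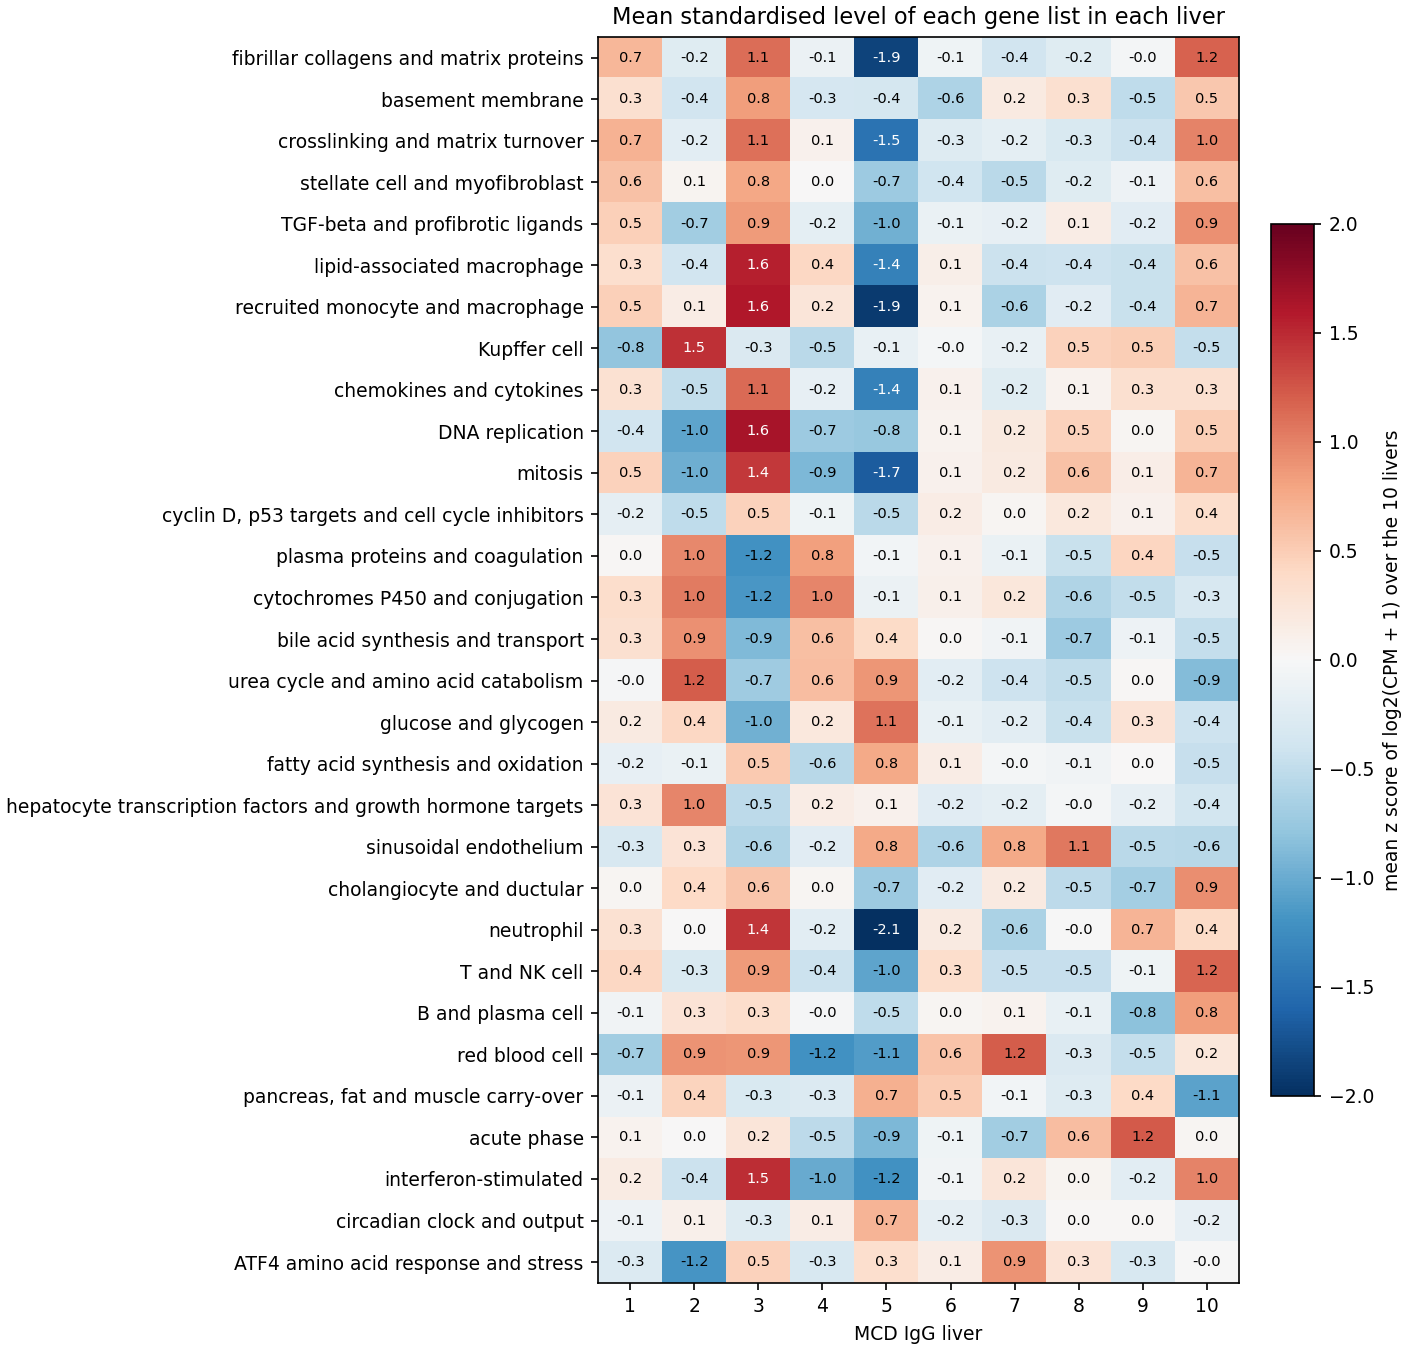
Mean standardised log2(CPM + 1) of the measured members of each of the 30 lists (down the page) in each of the 10 MCD IgG livers (across), from blue (below the gene's mean) to red (above it). Liver 3 is red and liver 5 blue across the matrix, macrophage and division lists, apart from the Kupffer cell list (-0.30 and -0.14). Liver 2 is red for the Kupffer cell and most hepatocyte lists.

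Seen by liver, the first principal component of the 13632 genes held 32.5% of the variance and set livers 3, 10 and 8 against livers 2, 5 and 4. All 24 mitosis and all 18 collagen genes had a positive r with it, and 52.7% of all genes did. The second component, with 24.3%, set liver 5 against livers 2, 4, 3 and 1. The scaling factor of a library, which TMM sets from the bulk of genes, had r = 0.91 with the first component (permutation p = 0.00064, 0.016 after Benjamini-Hochberg over 50 relations of library measures), 0.82 with Ccnd1 (permutation p = 0.0036, adjusted 0.06) and 0.75 with Mki67 (permutation p = 0.0111, adjusted 0.139). With scaling by the library total alone, 1409 genes rose and 445 fell with Ccnd1, and 1089 rose and 233 fell with Mki67, so the balance of directions for these genes depends on the scaling. The share of counts on the 10 highest genes had r = 0.99 with Alb, which is itself in that share. Total counts and mitochondrial share had no r with an index gene at an adjusted p under 0.05. Total counts had r = 0.39 with Mki67 and 0.31 with the first component. These became 0.84 and 0.79 without the 2 livers farthest from the median of total counts. With Col1a1 and Ccnd1 that r was then 0.58 and 0.42, and with the other index genes at most 0.25 in size. Mitochondrial share had rho = 0.66 with Acta2 (permutation p = 0.043, not adjusted). A relation of depth to these genes was therefore not excluded.

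Markers of other cells moved with some of these genes, and their part in the results above was not tested. The summed level of 12 neutrophil genes, 9 of them under the count minimum, ranged from 9.20 CPM in liver 5 to 26.7 CPM in liver 3 and had r = 0.90 with Col1a1, 0.88 with Gpnmb and 0.88 with Mki67. That of 12 T and NK cell genes, again 9 under the minimum, ranged from 5.17 CPM in liver 5 to 10.9 CPM in liver 3 (r = 0.94 with Col1a1). No member of either list was at 0 in all livers. Of the 3 neutrophil genes over the minimum, 1 was called with each of these 3 index genes. No T and NK cell gene was called with Col1a1. With livers 3 and 5 left out, no gene of either list was called with these index genes. The sum of 12 cholangiocyte and ductular genes was lowest in liver 2 (709 CPM) and highest in liver 3 (1298 CPM), with r = 0.82 with Ccnd1, 0.62 with Mki67 and -0.72 with Alb. The sum did not stand for its members: of the 10 measured, 4 had a positive r with Ccnd1, and the median r was -0.31. By mean standardised level the list was highest in liver 10 (0.93), and liver 2 was at 0.40. Sinusoidal endothelial genes summed to 403 to 509 CPM, and 3 of 12 fell with Gpnmb: Kdr, Gpr182 and Oit3. Over all genes 0.264% fell with it. With 1 liver left out, 0 to 3 genes of this list fell, and with livers 3 and 5 both left out none did. The sum of 11 Kupffer cell genes, 361 to 681 CPM, was highest in liver 2 and had r = -0.03 with Gpnmb. Of 12 pancreas, fat and muscle genes 2 were at 0 in every liver, and their sum was highest in liver 5 (37.8 CPM, median 11.3 CPM), with r = -0.71 with Col1a1, -0.75 with Gpnmb and -0.73 with Mki67. Acta1, whose level is given below, made up a large part of that sum in liver 5 and little of it elsewhere. Liver 5 was also the lowest for Col1a1, Gpnmb and Mki67, and r without it was not computed for any of these sums.

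**Figure D5:**
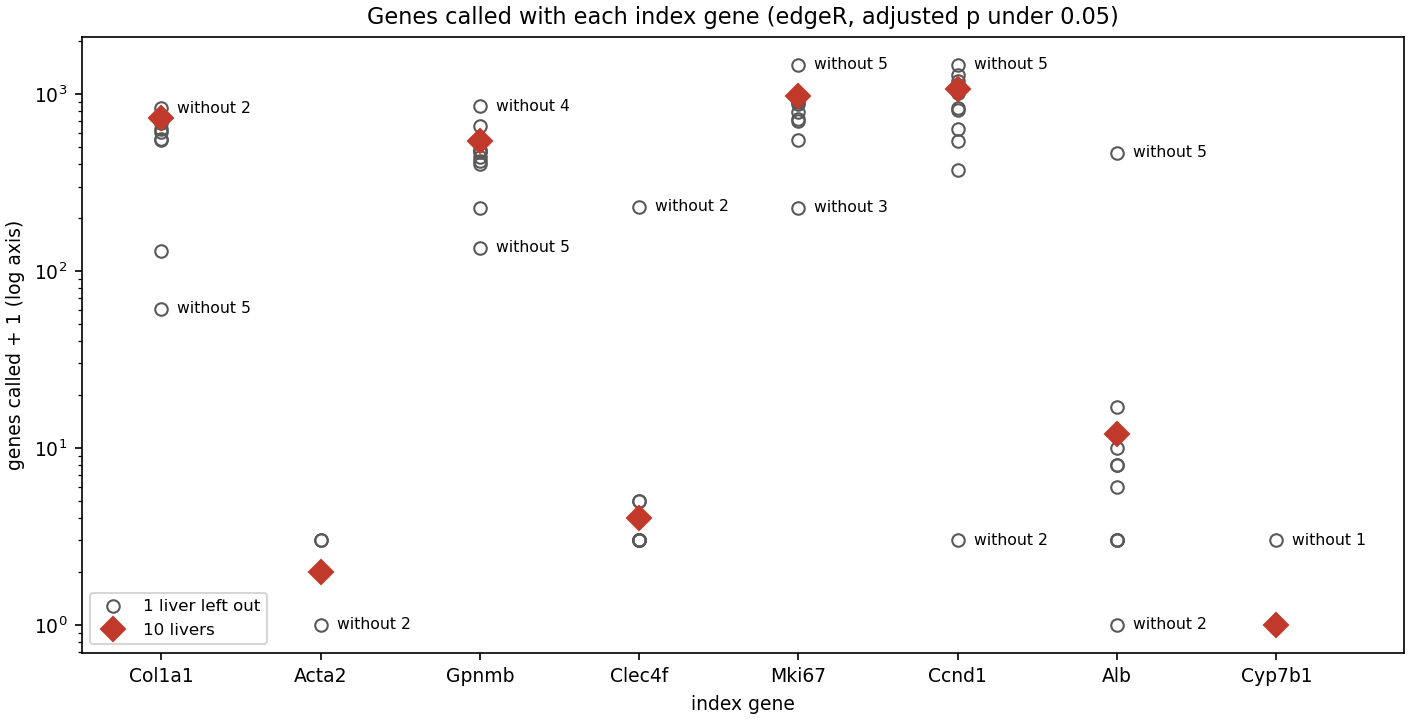
Number of genes called with each index gene plus 1 (vertical log axis; edgeR adjusted p under 0.05) with all 10 livers (red diamonds) and with each liver left out in turn (open circles, labelled where 1 liver alone gave the lowest or highest count). Counts fell to 60 for Col1a1 and 134 for Gpnmb without liver 5, to 226 for Mki67 without liver 3 and to 2 for Ccnd1 without liver 2.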

How the data were processed

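Bulk RNAseq of 10 MCD IgG livers was analysed. Per the file headers, the authors aligned reads with STAR to GRCm38 and deposited raw counts per gene of Ensembl annotation release 102. The header writes that release under the human build name GRCh38. The methods of the study name another aligner and build. Tool versions and strand setting are not given in the sources used here. The 20 count columns of the 3 other groups, 30 normalised columns, and the authors' columns of fold changes and p-values between groups were not used.

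Counts of 55487 genes were read, 13632 with a mean of at least 10 counts were kept, and CPM were scaled by TMM. Each index gene was fitted as a continuous covariate with edgeR's quasi-likelihood test (glmQLFit, glmQLFTest; edgeR 4.0.16, R 4.3.3), with Benjamini-Hochberg adjustment over all genes and a threshold of 0.05. DESeq2 1.42.0 and limma 3.58.1 served as alternatives, with other scalings, filters, covariates and left-out livers. Permutation tests used 100000 resamples (Python 3.11.15, numpy 2.4.6). The fit was tested on simulated data with the counts of these livers. Plots were drawn with matplotlib 3.10.9.

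The named genes were the index genes, the list members with the largest and the most opposite r with the index gene of their theme, the called genes above 5 CPM on average that had the largest r, and the 6 with the largest SD; other list members are named as examples, chosen after their values were seen. Members and lists were chosen with earlier results of these data known. Total counts were 10283129 to 15847636 per liver, so that genes near 1 CPM rest on few counts. With 1 group and no dose or batch label, no within-batch value could be given. The values of some list genes are not reported here.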

Additional observations from a re-analysis of the deposited data

Results flagged for a closer look

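Of 95 named genes, 3 had a liver whose gap to the nearest other liver on the log2(CPM + 1) scale, divided by the whole range of the 10 on that scale, exceeded Dixon's 95% critical value. Chance sets about 1 in 20 groups apart in this way. Dmbt1 was at 70.9 CPM in liver 2 and at most 0.258 CPM in any other liver (gap over range 0.946). Ppargc1a, a transcriptional coactivator of gluconeogenesis and mitochondrial genes, was at 33.8 CPM in liver 2, with 19.6 CPM the next highest (0.507). Zkscan3, a zinc finger gene, was at 69.6 CPM in liver 5, with 53.9 CPM the next highest (0.535).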

How the results depend on the processing

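No paired analysis was possible because 1 group alone was used. Settings that left out livers 3 and 5, or 2 and 4, were chosen after seeing the data. The cause of the changes below was not tested, beyond the fewer livers or genes that a setting itself leaves. Among values of the main results under other settings, 342 kept their direction and their side of the threshold or moved little, 69 moved further, 7 became weaker, 3 became stronger and 13 changed sign.

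Genes called with Col1a1 numbered 1118 by DESeq2, 68 with its rank, 341 by permutation of r and 2 without livers 3 and 5. With Acta2 they numbered 9 without a filter, 5 by DESeq2, and 0 with 10 counts in every liver, by limma, rank or permutation. With Gpnmb they numbered 319 by permutation and 21 without livers 3 and 5. With Clec4f they numbered 10 without a filter, 42 by DESeq2, 5 with the library total as covariate, 1 with the mitochondrial share or by rank, and 0 by permutation. With Mki67 they numbered 1591 by DESeq2, 497 by permutation and 1557 without livers 3 and 5. With Ccnd1 they numbered 1607 by DESeq2, 1854 with total-only scaling, 361 by permutation and 1728 without livers 3 and 5. With Alb they numbered 6 with upper-quartile scaling, 52 without a filter, 241 by DESeq2, 7 by rank, 42 with the total as covariate, 158 without livers 3 and 5, 2 by limma, with total-only scaling or with 10 counts in every liver, and 0 by permutation. With Cyp7b1, DESeq2 called 72.

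Leaving out 1 liver in turn gave 60 to 832 calls with Col1a1, 0 to 2 with Acta2, 134 to 852 with Gpnmb, 2 to 230 with Clec4f, 226 to 1463 with Mki67, 2 to 1460 with Ccnd1, 0 to 464 with Alb and 0 to 2 with Cyp7b1. The first component then held 32.4% to 37.6% of the variance. It held 42.2% without livers 3 and 5, and 26.3% with genes scaled to unit variance.

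Without livers 3 and 5, r was 0.56 for Col1a1 and Gpnmb, 0.46 for Col1a1 and Mki67, -0.0649 for Gpnmb and Mki67, -0.17 for Gpnmb and Ccnd1, -0.15 for Clec4f and Cyp7b1, 0.084 for Col1a1 and Acta2 and -0.87 for Mki67 and Alb. List medians were then 0.72 within collagens, 0.655 within recruited macrophages, 0.79 within mitosis, 0.53 between collagens and recruited macrophages, 0.35 between collagens and mitosis and -0.0607 between recruited macrophages and mitosis. Without livers 2 and 4, r was 0.10 for Col1a1 and Acta2, 0.0584 for Col1a1 and Alb, 0.61 for Acta2 and Ccnd1, -0.47 for Acta2 and Alb, 0.0695 for Clec4f and Ccnd1, -0.27 for Clec4f and Cyp7b1 and 0.0497 for Mki67 and Alb. Without the 2 livers farthest from the median of the first gene, r was -0.23 for Col1a1 and Ccnd1, 0.54 for Col1a1 and Alb, 0.57 for Col1a1 and Cyp7b1, 0.72 for Acta2 and Ccnd1, -0.60 for Acta2 and Alb, -0.0649 for Gpnmb and Mki67, -0.17 for Gpnmb and Ccnd1, 0.60 for Clec4f and Ccnd1, -0.53 for Clec4f and Alb, -0.74 for Clec4f and Cyp7b1 and -0.88 for Mki67 and Alb. Spearman's rho was 0.13 for Col1a1 and Acta2, 0.62 for Col1a1 and Mki67, 0.10 for Col1a1 and Alb, 0.20 for Acta2 and Ccnd1, 0.49 for Gpnmb and Mki67 and -0.0061 for Clec4f and Cyp7b1. Total-only scaling gave 0.0168 for Col1a1 and Acta2, 0.0306 for Col1a1 and Alb, -0.10 for Clec4f and Cyp7b1 and a median of 0.21 within plasma proteins, and the partial r of Col1a1 and Acta2 given the total was 0.0208.

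With 1 liver left out, r was between -0.15 and 0.13 for Col1a1 and Acta2, 0.67 and 0.89 for Col1a1 and Mki67, -0.50 and 0.39 for Col1a1 and Alb, -0.32 and 0.21 for Col1a1 and Cyp7b1, -0.35 and 0.64 for Acta2 and Ccnd1, -0.53 and 0.23 for Acta2 and Alb, 0.37 and 0.86 for Gpnmb and Mki67, -0.18 and 0.24 for Gpnmb and Ccnd1, -0.39 and 0.58 for Gpnmb and Alb, -0.12 and 0.44 for Gpnmb and Cyp7b1, -0.59 and 0.18 for Clec4f and Ccnd1, -0.31 and 0.39 for Clec4f and Cyp7b1 and -0.92 and 0.0924 for Mki67 and Alb. Most of these pairs had no r past its test with all 10 livers. Genes near 1 CPM rest on few counts, which limits the precision of their r.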

Other observations

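Beyond the 4 themes, interferon-stimulated genes varied as a block: all 66 pairs of the 12 measured genes had a positive r, with a median of 0.66. With Mki67, 4 of 12 rose (Isg15, Ifit1, Ifit3 and Oas1a), and with Col1a1 5 of 12 did. Without liver 3 these counts were 2 and 0. Isg15, a ubiquitin-like protein, had 6.04 CPM in liver 5, a median of 12.8 CPM and 18.1 CPM in liver 10, and its r with Mki67 was 0.93 (edgeR adjusted p = 0.00323). The mean standardised level of the acute phase list was highest in liver 9, at 1.23, though single members differed (Saa1 was highest in liver 8). Cxcl1 and Socs3, a feedback inhibitor of cytokine signalling, were highest there too (86.1 and 42.1 CPM). Of 14 measured genes of the circadian clock and its output 4 fell with Mki67: Per1, Per3, Ciart and Nr1d1. With 1 liver left out, 1 to 5 genes of that list fell, the fewest without liver 3. Nr1d1, a repressor of the clock, was at 99.2 CPM in liver 5 and 93.8 CPM in liver 4, and no other liver was above 47.8 CPM. The hour at which each liver was taken is not given in the sources used here.

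Single genes of the amino acid stress response were high in liver 5 or 7, and Scd1, a gene of lipid synthesis, was high in liver 5. The amino acid stress list had its highest mean standardised level in liver 7 (0.90), followed by liver 3 (0.46) and liver 5 (0.34). The list of fatty acid synthesis and oxidation was at 0.76 in liver 5 and at -0.05 in liver 7. Scd1, a fatty acid desaturase, was at 4254 CPM in liver 5, with a median of 726 CPM. Ddit4, a stress-induced inhibitor of mTOR, was at 57.2 CPM in liver 5 and 49.0 CPM in liver 7, against a median of 9.24 CPM. Fgf21, a hepatokine induced by fasting and amino acid stress, had 9.57 CPM in liver 2, a median of 60.0 CPM and 194 CPM in liver 7 (SD 1.23). Acta1, skeletal muscle actin, was at 19.4 CPM in liver 5 and at most 0.368 CPM elsewhere, and Cfd, which adipocytes express strongly, was at 6.71 CPM in liver 9.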
